A study of Mus musculus with 18 samples.

Results

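The 2 stimuli given to bone marrow-derived macrophages (BMDMs) of the C57BL/6.NOD-Aec1Aec2 mouse, apoptotic cells (AC) and CpG, were set against each other directly, gene by gene and in both directions. The comparison was chosen by the sample labels, 3 AC samples against 3 CpG samples, which are 6 of the 18 RNA-seq samples of the study. The strain, called Aec1Aec2 below, models Sjögren's syndrome and carries the Aec1 and Aec2 intervals of the NOD mouse on the C57BL/6 (B6) background, so all 6 samples share those alleles. Marrow came from mice of 7 to 12 weeks and was grown for 7 days with 20% supernatant of L929 cells as the source of M-CSF. BMDMs of the AC group received 5 apoptotic thymocytes per macrophage for 2 h, were washed free of them and were kept for another 3 h, while BMDMs of the CpG group received 1 µM CpG for 6 h. These times are those of the sample labels, while the study's text is not uniform on the time after the wash. Both treatments were made in medium with 5% L929 supernatant. The thymocytes had been killed with dexamethasone, and the sources used here do not give the strain of the thymocytes used for each sample. By the labels, stimulus, length of exposure and wash differ together between the groups and cannot be told apart. The other 12 samples were untreated Aec1Aec2 BMDMs and B6 BMDMs that were untreated, given AC or given CpG, 3 of each, and are used for reference levels and for the strain comparison. In bulk RNA, fewer cells that express a gene and less RNA per cell cannot be told apart, and RNA carried in by engulfed thymocytes is counted with that of the macrophage.

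CpG oligonucleotides are DNA with unmethylated CG dinucleotides that is sensed in endosomes by TLR9, a receptor that signals through MyD88 to NF-κB, MAP kinases and interferon regulatory factors. Apoptotic cells are bound by macrophage receptors such as MerTK and Axl through bridging proteins, and their lipids and nucleic acids are degraded in lysosomes after uptake. Interferon beta acts on its receptor through STAT proteins and IRF9, which bind the interferon-stimulated response element (ISRE), while NF-κB binds kappa-B sites, STAT dimers bind the gamma-activated sequence (GAS) and Fos and Jun proteins bind AP-1 sites.

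Promoters are shown of 3 genes in each direction, because the 2 sets of genes are compared below for these binding motifs. They were taken by size of difference from the genes at 5 CPM or more whose samples did not overlap and that had an entry in the RefSeq promoter table. Each sequence is the 250 bases before the annotated start, 5′ to 3′ on the gene's strand, from RefSeq on GRCm38.p6. Capitals mark matches to ISRE (GAAANNGAA), kappa-B (GGANNTTCC), GAS (TTCNNNGAA) or AP-1 (TGANTCA), searched on both strands, and overlapping matches run together. Cxcl10, Ifit1bl1 and Serpina3f were higher with AC, and Cd300e, Fcrl5 and Pim2 were higher with CpG. The starts of Cxcl10, Ifit1bl1 and Serpina3f are those of the deposited gene table, whereas RefSeq's starts of Cd300e, Fcrl5 and Pim2 lie 138, 9 and 44 bases from it.
Cxcl10 (chr5:92348890-92349139, minus strand): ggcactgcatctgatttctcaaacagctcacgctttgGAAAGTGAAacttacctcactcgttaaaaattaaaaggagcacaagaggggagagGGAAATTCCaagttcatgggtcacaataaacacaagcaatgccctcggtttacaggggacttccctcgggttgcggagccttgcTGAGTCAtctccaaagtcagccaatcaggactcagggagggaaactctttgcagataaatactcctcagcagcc
Ifit1bl1 (chr19:34601969-34602218, minus strand): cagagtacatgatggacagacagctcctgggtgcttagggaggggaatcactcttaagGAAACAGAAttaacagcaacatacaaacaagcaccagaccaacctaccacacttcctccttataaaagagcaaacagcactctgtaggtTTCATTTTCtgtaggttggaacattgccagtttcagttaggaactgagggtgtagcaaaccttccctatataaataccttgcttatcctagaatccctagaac
Serpina3f (chr12:104214294-104214543, plus strand): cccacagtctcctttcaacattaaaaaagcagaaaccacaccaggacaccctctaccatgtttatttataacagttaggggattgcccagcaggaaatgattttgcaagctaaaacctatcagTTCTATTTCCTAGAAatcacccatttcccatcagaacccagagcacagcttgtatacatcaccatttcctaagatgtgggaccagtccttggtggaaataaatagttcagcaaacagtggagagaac
Cd300e (chr11:115062040-115062289, minus strand): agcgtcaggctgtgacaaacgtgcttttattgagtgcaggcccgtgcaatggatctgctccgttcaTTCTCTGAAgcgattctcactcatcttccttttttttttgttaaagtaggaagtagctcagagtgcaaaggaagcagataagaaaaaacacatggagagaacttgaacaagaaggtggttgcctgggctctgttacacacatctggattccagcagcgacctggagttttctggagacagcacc
Fcrl5 (chr3:87435532-87435781, plus strand): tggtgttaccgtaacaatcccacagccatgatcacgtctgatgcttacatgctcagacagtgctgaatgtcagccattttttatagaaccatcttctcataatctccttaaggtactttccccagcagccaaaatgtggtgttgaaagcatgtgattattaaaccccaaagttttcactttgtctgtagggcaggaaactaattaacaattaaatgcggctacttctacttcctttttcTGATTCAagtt
Pim2 (chrX:7878056-7878305, plus strand): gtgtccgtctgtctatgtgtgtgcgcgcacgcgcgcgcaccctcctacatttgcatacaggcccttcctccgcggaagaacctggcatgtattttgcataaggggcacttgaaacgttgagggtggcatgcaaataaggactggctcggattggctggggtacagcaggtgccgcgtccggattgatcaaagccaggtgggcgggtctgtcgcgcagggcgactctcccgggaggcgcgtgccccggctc
The Cxcl10 promoter held an ISRE match that begins 213 bases before the start, a kappa-B match at 158 and an AP-1 match at 74. That of Ifit1bl1 held an ISRE match at 192 and another at 103. In Serpina3f an ISRE match at 127 overlapped a GAS match at 121. The CpG-higher genes showed a GAS match at 184 in Cd300e, an AP-1 match at 11 in Fcrl5 and none of the 4 motifs in Pim2. A match describes letters only, and binding was not measured.

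Counts on genes ranged from 46212590 to 57053309 in the AC samples and from 39439240 to 43844390 in the CpG samples. Expression is given as CPM, counts scaled to a common library total after edgeR's TMM scaling, and differences as log2 fold changes of AC over CpG, so that a positive value is a higher level with AC. The table lists 20615 genes, of which 15789 had enough counts for edgeR's filter and entered its quasi-likelihood test, with p-values adjusted over all of them after Benjamini and Hochberg. Here "called" means an adjusted p below 0.05 together with a log2 fold change beyond 1.3 in either direction. With AC 849 genes were called higher (5.38% of genes tested), and with CpG 600 (3.8%). The numbers of gene list members called below are to be read against these shares. The values of the 3 AC and 3 CpG samples did not overlap for 835 of the 849 and 578 of the 600, beside 9612 of all genes tested (60.9%). Without the fold threshold 4063 genes were higher with AC and 4179 with CpG. The split depended on the scaling: when libraries were scaled by total counts alone, an alternative chosen after the data were seen, 600 genes were higher with AC and 1048 with CpG, and the share higher with AC went from 58.6% to 36.4%. That scaling lowered the median log2 fold change of all genes from -0.02 to -0.31, and the values below are to be read against these medians. On the first principal component of the 500 most variable genes, which held 84.9% of the variance among the 6 samples, AC samples lay between 32.0 and 32.9 and CpG samples between -35.4 and -30.2.

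**Figure D1:**
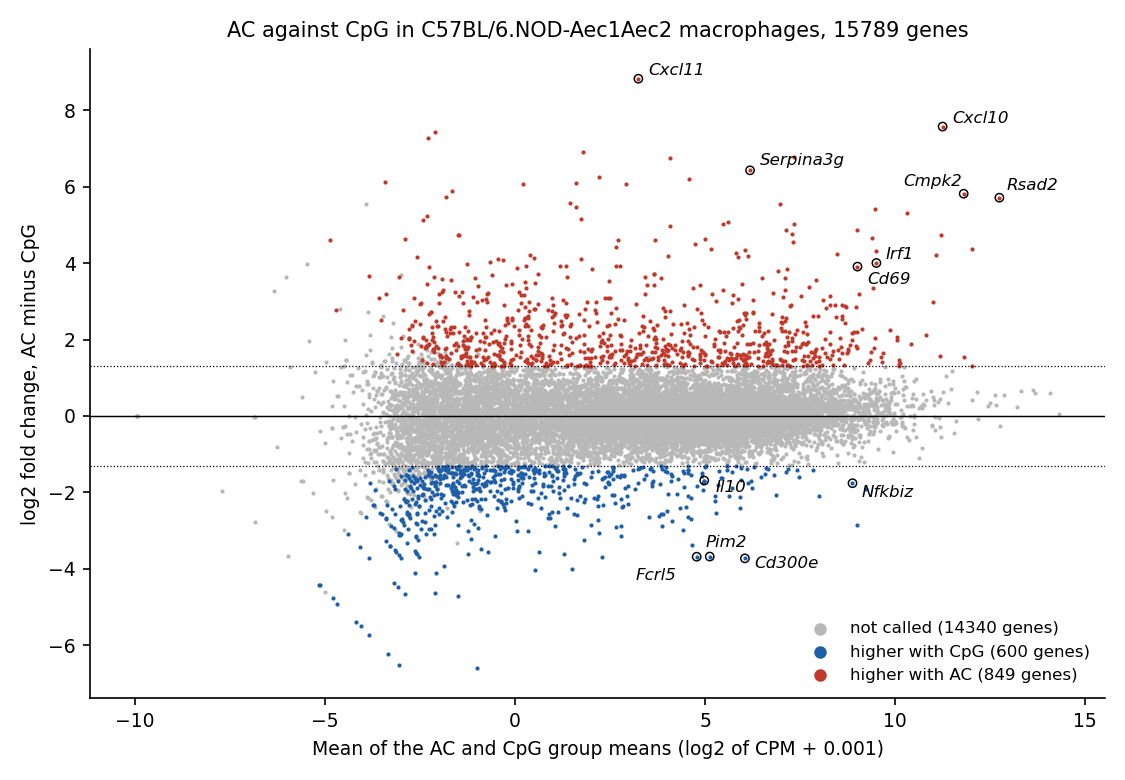
Difference between AC and CpG for 15789 genes in Aec1Aec2 BMDMs. The x axis is the mean of the 2 group means (log2 of CPM plus 0.001), the y axis the log2 fold change of AC over CpG, each point is a gene, red and blue mark the 849 genes called higher with AC and the 600 called higher with CpG, and dotted lines lie at a log2 fold change of 1.3 in either direction. The red points spread over all levels, whereas most blue points lie at low levels: for 464 of the 849 but 133 of the 600 the mean of the 2 group means was 5 CPM or more.

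The genes with the largest differences towards AC among those at 5 CPM or more coded for chemokines, interferon-inducible GTPases and serpins. Cxcl10, the CXCR3 ligand also known as IP-10, was at 4626, 5143 and 4774 CPM in the 3 AC samples and at 31.4, 20.9 and 23.7 CPM in the 3 CpG samples. Its log2 fold change was 7.58 (standard error, or SE, 0.26 with an adjusted p of 7.39e-14), and the lowest AC sample lay far above the highest CpG sample. Untreated BMDMs had 2.597, 4.17 and 0.888 CPM, so Cxcl10 was above control with both stimuli, by 10.99 on the log2 scale with AC and by 3.41 with CpG. Cxcl11, a neighbour of Cxcl10 on chromosome 5 that encodes another CXCR3 ligand and that the annotation lists as a polymorphic pseudogene, had 19.1, 21.1 and 16.5 CPM with AC and 0.04498, 0.0247 and 0.0457 CPM with CpG. The difference of 8.83 (SE 0.27) rests on 2477 counts in the AC group and 5 in the CpG group. Ifit1bl1, of the IFIT family of antiviral RNA-binding proteins, was at 324, 326 and 318 CPM with AC, 3.19, 2.1001 and 3.43 CPM with CpG and 0.774, 1.597 and 0.852 CPM without treatment. All its AC samples were far above every other sample of the strain.

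Serpina3g and Serpina3f, intracellular and secreted serine protease inhibitors that lie side by side on chromosome 12, differed by 6.43 and 6.75. Serpina3g was at 139, 131 and 161 CPM with AC and 1.84, 1.21 and 1.896 CPM with CpG, and Serpina3f at 33.2, 33.04 and 34.5 CPM with AC and 0.382, 0.198 and 0.343 CPM with CpG. Neither gene's groups overlapped. Tgtp1, an interferon-inducible GTPase, was at 46.8 ± 6.11 CPM (mean ± SD, n = 3) with AC and at 0.6297 ± 0.113 CPM with CpG, and Gm4841, a predicted gene of the same family, at 6.82 ± 1.75 and 0.05395 ± 0.0564 CPM. Members of the Ifit, Serpina3, Gbp and Tgtp families resemble one another, so the authors' counting may have divided reads between them and their single values are uncertain to that extent. Lhx2, a LIM homeobox transcription factor, had 8.35, 9.08 and 9.89 CPM with AC against 0.157, 0.0741 and 0.114 CPM with CpG. Dll1, a Notch ligand, had 4.91, 6.48 and 6.71 CPM against 0.0675, 0.0247 and 0.1599 CPM. Fosb, an AP-1 subunit, was at 14.9, 13.04 and 16.98 CPM with AC and 0.315, 0.247 and 0.0914 CPM with CpG, but its control samples spread widely, at 5.38, 10.97 and 0.671 CPM. Of these genes Fosb was the one for which CpG samples lay below all controls and AC samples above them.

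The 10 genes with the largest differences towards CpG are given under the same limit of 5 CPM, among called genes whose samples did not overlap. Their differences were smaller than those of the AC genes above. Over all called genes the median sizes were close, 1.90 for genes higher with AC and 1.82 for those higher with CpG. Beyond a log2 fold change of 4 lay 63 genes higher with AC and 18 higher with CpG, the latter up to 6.61 in size. Cd300e, an activating receptor of monocytes and macrophages, was at 6.87, 7.53 and 13.3 CPM in the AC samples and 117, 104 and 148 CPM in the CpG samples, a log2 fold change of -3.73 (SE 0.21 with an adjusted p of 2.55e-11). Control samples had 2.43, 2.01 and 3.21 CPM, so the level with AC lay between those of control and CpG. Pim2, a serine/threonine kinase that promotes survival, had 5.27, 4.46 and 5.38 CPM with AC and 63.8, 53.02 and 76.8 CPM with CpG. Fcrl5, an Fc receptor-like protein, had 3.98, 2.82 and 5.09 CPM with AC and 53.6, 35.97 and 63.1 CPM with CpG. Kcnj2, an inward rectifier potassium channel, differed in that its controls (21.4, 17.5 and 21.4 CPM) lay between AC (3.798, 4.86 and 4.53 CPM) and CpG (44.5, 48.9 and 43.3 CPM). It was lower than control with AC (log2 fold change -2.19) and higher with CpG (1.17). Gfi1b, a transcriptional repressor of blood cell development, had 1.03, 1.14 and 0.763 CPM with AC and 8.68, 6.45 and 9.43 CPM with CpG. Nrxn2, which encodes a neurexin, had 5.79, 3.87 and 4.67 CPM against 37.1, 31.9 and 44.3 CPM, and Adgrb2, an adhesion G protein-coupled receptor, 0.904, 0.252 and 0.853 CPM against 5.31, 5.76 and 7.83 CPM. The other 3 of the 10 were the predicted genes Gm10169, Gm38383 and Gm19026, with log2 fold changes of -3.997, -3.696 and -3.15. Gm10169 was at 1.06, 0.02103 and 0 CPM in the AC samples, so its level varied widely there.

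Ifnb1 and 41 of 56 antiviral interferon-stimulated genes were called higher with AC. Ifnb1, the interferon beta gene, was at 5.66, 5.45 and 4.85 CPM with AC and at 0.157, 0.124 and 0.0457 CPM with CpG (log2 fold change 5.58, SE 0.53, adjusted p = 4.31e-08). The CpG values overlapped those of control (0.129, 0.177 and 0.0363 CPM) at the harvest time of this group. Ifnb1 was the 1 type I interferon gene of the list that passed the filter. Of 15 interferon regulatory factors and STATs, 4 were called higher with AC, among them Irf1, Irf7 and Stat2, and 0 higher with CpG. Irf1, an early interferon-induced factor, had 1373, 1453 and 1285 CPM with AC and 82.6, 76.8 and 96.5 CPM with CpG, and the CpG samples overlapped the controls (72.7, 73.4 and 90.4 CPM). Irf7, which amplifies interferon production, was at 732, 806 and 817 CPM and 217, 185 and 261 CPM, and Stat2 at 657, 624 and 707 CPM and 197, 150.3 and 247 CPM. The levels of Irf7 and Stat2 in the CpG samples were also above those of all controls (104, 122 and 110.3 and 89.02, 106 and 95.03 CPM).

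Of 56 antiviral interferon-stimulated genes tested, 41 were called higher with AC and 0 higher with CpG, beside 5.38% and 3.8% of all genes. The list's median log2 fold change was 1.81 (-0.02 over all genes). Rsad2, which encodes the antiviral enzyme viperin, was at 13433, 13142 and 13814 CPM with AC and 291, 164 and 313 CPM with CpG, a log2 fold change of 5.72 (SE 0.28). Its neighbour Cmpk2, a nucleotide kinase, was at 6870.1, 7055 and 7167 CPM and 136, 81.3 and 156 CPM. The CpG samples of both genes lay above all controls, at 49.99, 75.3 and 35.9 CPM for Rsad2 and 19.4, 29.9 and 17.2 CPM for Cmpk2. Against control, the list had 49 members called higher with AC (7.09% of all genes) and 26 with CpG (4.81%), and 0 called lower with either (5.83% and 4.45% of all genes), in comparisons that share the control samples. Bst2, or tetherin, was among the members not called, at 353, 395 and 386 CPM with AC and 254, 268 and 291 CPM with CpG, a log2 fold change of 0.48.

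Of 27 guanylate-binding proteins (GBPs) and immunity-related GTPases, which act on the membranes of intracellular pathogens, 26 were called higher with AC and 0 with CpG, with a median log2 fold change of 2.91. The member not called, F830016B08Rik, named after its value was seen, had a log2 fold change of 1.23. Gbp2 was at 890.2, 859 and 881 CPM with AC, 136, 91.8 and 137 CPM with CpG and 17.8, 17.2 and 14.4 CPM in controls. Igtp, also called Irgm3, was at 566, 539.8 and 534 CPM, 72.9, 52.1 and 93.2 CPM and 22.7, 24.7 and 23.2 CPM, and Iigp1 at 1546, 1255 and 1349.97 CPM, 40.95, 17.6 and 38.3 CPM and 12.01, 10.1 and 8.05 CPM. For Gbp2, Igtp and Iigp1 the CpG level was the middle one of 3 levels that did not overlap. Among 24 genes of nucleic acid sensing, editing and degradation, 16 were called higher with AC and 1, Dnase1, higher with CpG. Ifi205, of the AIM2-like family on chromosome 1, had 268, 278 and 271 CPM with AC and 11.04, 5.48 and 11.4 CPM with CpG. Gm4955 and Pydc4 of the same family were at 6.32 ± 0.568 and 2.62 ± 0.238 CPM with AC and at 0.355 ± 0.419 and 0.227 ± 0.213 CPM with CpG. Dnase1, an extracellular nuclease, was at 0.284, 0.315 and 0.202 CPM with AC and 1.03, 1.68 and 1.14 CPM with CpG.

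Motif letters were then counted in the promoters, taking 250 bases before to 50 after the start, of the 10389 tested genes with an entry in the RefSeq table, 2087 of them with more than 1 entry. The ISRE letters occurred in 19.4% of promoters of genes called higher with AC (111 of 572), in 6.09% of those called higher with CpG (17 of 279) and in 8.92% of all. AP-1 letters occurred in 14.5%, 5.38% and 6.57%, GAS letters in 11.9%, 7.89% and 8.23% and kappa-B letters in 8.04%, 5.38% and 5.53%. More than 1 ISRE match was held by 4.20% of the promoters of genes higher with AC and by 0.789% of all. By list, 13 of 16 promoters of GBPs and immunity-related GTPases and 25 of 43 of the antiviral genes held the ISRE letters, beside 1 of 22 of the sterol and fatty acid synthesis genes. These shares were not tested, and 277 genes higher with AC and 321 higher with CpG had no entry.

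**Figure D2:**
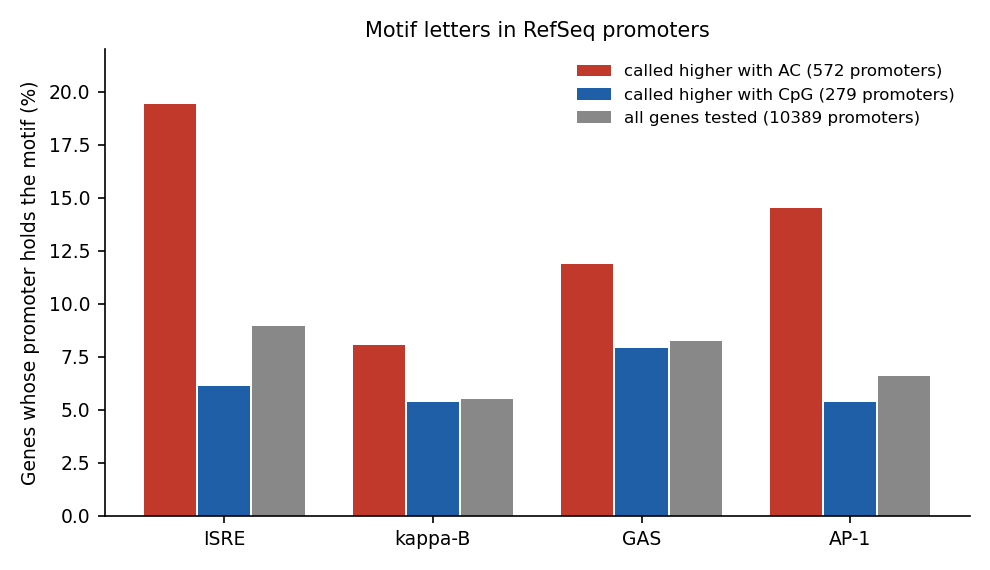
Share of genes whose RefSeq promoter holds the letters of each motif on either strand. Bars show the percentage for genes called higher with AC (572 promoters), genes called higher with CpG (279) and all genes tested (10389), and the highest bar is that of ISRE in genes higher with AC, at 19.4% beside 8.92% of all genes.

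Chemokines differed by type. Of 14 CXC and related chemokines 4 were called higher with AC, the CXCR3 ligands Cxcl9, Cxcl10 and Cxcl11 together with Cx3cl1, and 0 higher with CpG. Cxcl9 had 32.8, 39.3 and 26.2 CPM with AC and 1.304, 0.642 and 1.14 CPM with CpG. The neutrophil-attracting Cxcl1, Cxcl2 and Cxcl3, named after their values were seen, differed by 0.36, -0.08 and -0.20 and were not called. Of 12 CC chemokines 7 were called higher with AC and 0 with CpG. Ccl2, Ccl7 and Ccl12, monocyte-attracting ligands of CCR2 from 1 cluster on chromosome 11, were at 329 ± 32.4, 265 ± 33.7 and 110.1 ± 7.72 CPM with AC. They were at 37.2 ± 2.96, 18.3 ± 3.07 and 6.14 ± 2.02 CPM with CpG, and no group overlapped. Ccl3, an inflammatory chemokine, was at 654, 790.5 and 781 CPM with AC and 861, 744 and 1039 CPM with CpG, groups that overlapped (log2 fold change -0.25, adjusted p = 0.0592), against 31.04, 36.3 and 28.2 CPM in controls. Among chemokine and formyl peptide receptors, 1 of 16 was called in each direction, near the 5.38% (AC) and 3.8% (CpG) of all genes. Ccrl2, an atypical receptor that presents chemerin, was at 428, 459.6 and 453 CPM with AC and 40.9, 34.1 and 38.8 CPM with CpG. Fpr2, a receptor of formyl peptides, was at 79.6, 75.1 and 86.8 CPM with AC and 219, 201 and 216 CPM with CpG.

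Of 33 cytokine genes, 17 were called higher with AC and 4, Il10, Il12a, Il16 and Csf3, higher with CpG, and the median was 1.305. Tnf was at 722, 835 and 757 CPM with AC and 657, 583 and 606 CPM with CpG, against 21.8, 25.7 and 14.3 CPM in controls. The groups did not overlap, but the difference of 0.33 (SE 0.13 with an adjusted p of 0.0429) was below the fold threshold. Il1b was at 122, 131 and 132 CPM and 109, 96.1 and 123 CPM, which overlapped, and its log2 fold change of 0.23 (adjusted p = 0.289) turned to -0.0510 under scaling by total counts. Both genes were far above control with either stimulus. Il6 was at 55.5, 75.7 and 76.8 CPM with AC and 17.3, 12.4 and 15.3 CPM with CpG, a log2 fold change of 2.21 (SE 0.18 with an adjusted p of 6.26e-09). Il15, a survival factor of NK and memory T cells, was at 105, 115 and 102 CPM with AC and 5.94, 4.57 and 6.33 CPM with CpG. The CpG values of Il15 overlapped control (5.84, 8.46 and 7.32 CPM), so the difference lay with AC. Tnfsf10, which encodes TRAIL, and Tnfsf15, which encodes TL1A, were at 307 ± 12.7 and 86.1 ± 5.81 CPM with AC and at 12.9 ± 3.59 and 2.61 ± 0.716 CPM with CpG.

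Il10, an anti-inflammatory cytokine, was at 12.7, 14.5 and 17.4 CPM with AC and 47.9, 38.05 and 58.2 CPM with CpG, a log2 fold change of -1.69 (SE 0.15 with an adjusted p of 1.14e-08), and its controls were at 0.939, 1.57 and 1.25 CPM. All AC samples thus lay above control and below all CpG samples. Csf3, which encodes the granulocyte factor G-CSF, had 0.336, 0.273 and 0.673 CPM with AC, 1.62, 1.88 and 2.06 CPM with CpG and 0 counts in controls. Il16, a T cell attractant, had its highest level in controls (48.98, 49.5 and 60.1 CPM), with 7.03, 5.87 and 6.304 CPM with AC and 20.7, 20.5 and 24.6 CPM with CpG. Il12b, the p40 subunit of IL-12, was at 17.2, 16.7 and 13.6 CPM with AC and 29.8, 20.6 and 24.6 CPM with CpG, a difference of -0.66 that did not pass the fold threshold. Tgfb1 differed by 0.05 (adjusted p = 0.381), or -0.23 under scaling by total counts.

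**Figure D3:**
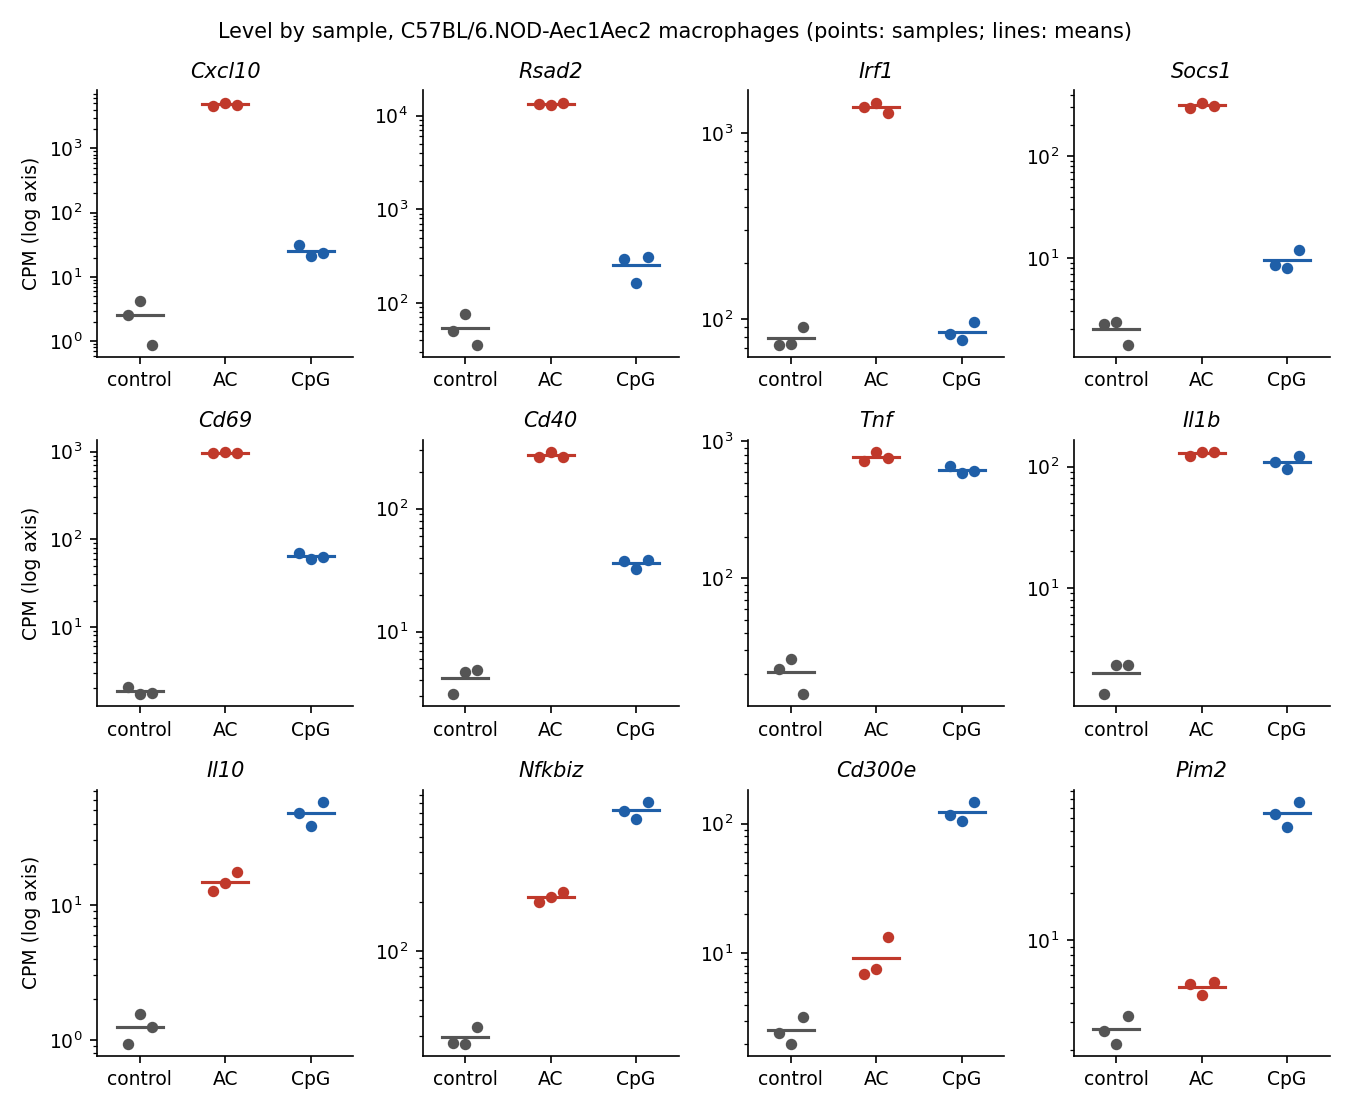
Levels of 12 genes in the 9 Aec1Aec2 samples, 3 each of control, AC and CpG. The y axes are CPM on log axes with their own range for each gene, points are samples and lines are group means. Cxcl10, Rsad2, Irf1, Socs1, Cd69 and Cd40 were higher with AC than with CpG in each sample, Tnf and Il1b had close levels, and Il10, Nfkbiz, Cd300e and Pim2 were higher with CpG in each sample.

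Receptors of innate sensing and their feedback inhibitors were compared next. Of 25 Toll-like receptors and adaptors, 5 were called higher with AC (Tlr3, Tlr5, Tlr7, Tlr9 and Tlr11) and 0 with CpG. Tlr9, the receptor for CpG, was at 107, 85.7 and 106 CPM with AC and 21.4, 19.9 and 18.04 CPM with CpG. Controls lay between them, at 38.2, 35.3 and 35.8 CPM, so Tlr9 was higher than control with AC (log2 fold change 1.45) and lower with CpG (-0.88). Tlr7, a receptor for single-stranded RNA, showed the same order, with 328, 288 and 319 CPM with AC, 198, 172 and 151 CPM in controls and 121, 93.6 and 103 CPM with CpG. Its difference of 1.56 was 1.27 under scaling by total counts, below the fold threshold. Tlr3, a receptor for double-stranded RNA, was at 106, 102 and 113 CPM with AC and 22.6, 16.7 and 22.4 CPM with CpG. Of 23 NF-κB subunits and feedback inhibitors, 1 was called in each direction, near the 5.38% (AC) and 3.8% (CpG) of all genes. Nfkbie, an inhibitor of NF-κB, was at 201 ± 16.7 CPM with AC and 73.6 ± 5.69 CPM with CpG, and its difference of 1.45 was 1.16 under scaling by total counts. Nfkbiz, a nuclear cofactor of NF-κB needed for a subset of its targets, was at 198, 215 and 230.4 CPM with AC, 721, 641 and 819 CPM with CpG and 27.2, 27.1 and 34.3 CPM in controls. Among 13 SOCS and other JAK-STAT inhibitors 4 were called higher with AC, Socs1, Socs2, Socs7 and Cish, and 0 with CpG. Socs1, which restrains interferon signalling, was at 295, 333 and 312 CPM with AC and 8.61, 7.96 and 12.01 CPM with CpG. Socs3, which restrains IL-6 signalling, was at 167, 192 and 173 CPM and 284, 292 and 358 CPM, higher in each CpG sample by less than the fold threshold (-0.81).

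Of 18 costimulatory and checkpoint ligands, 7 were called higher with AC and 1, Pdcd1lg2, higher with CpG. Cd40, the receptor through which T cells activate macrophages, was at 264, 289 and 265 CPM with AC, 37.8, 32.5 and 38.5 CPM with CpG and 3.09, 4.64 and 4.88 CPM in controls. Its log2 fold change was 2.91 (SE 0.13 with an adjusted p of 1.04e-12). Cd69, an early activation marker, was at 958, 987 and 954 CPM with AC and 70.1, 59.9 and 62.6 CPM with CpG. Cd86 and Cd83 were at 189 ± 6.39 and 134 ± 11.6 CPM with AC and at 29.7 ± 5.002 and 20.2 ± 5.25 CPM with CpG. The CpG samples of both genes overlapped controls, which were at 47.5 ± 15.1 and 32.4 ± 10.6 CPM. Pdcd1lg2, which encodes the checkpoint ligand PD-L2, was low with both, at 0.517, 0.189 and 0.269 CPM with AC and 0.945, 0.964 and 1.16 CPM with CpG. In 22 genes of MHC class I presentation 6 were called higher with AC and 0 with CpG, led by Tap1, the peptide transporter, at 436, 461 and 466 CPM and 109.8, 90.7 and 136 CPM. In 13 genes of MHC class II presentation 3 were called higher with AC and 0 with CpG. Ciita, their master regulator, was low at 1.62 ± 0.364 CPM with AC and 0.281 ± 0.0938 CPM with CpG, and the calls of H2-DMa and H2-DMb2 were lost under scaling by total counts, and that of H2-DMb2 also without AC replicate 1 (1.28), AC replicate 2 (1.22) or CpG replicate 1 (0.984). Among 32 receptors of cytokines and colony-stimulating factors 7 were called higher with AC and 1, Il2ra, with CpG, a call lost without AC replicate 2 (-1.29) or CpG replicate 3 (-1.06). Il15ra, which presents IL-15, was at 60.6, 57.03 and 66.02 CPM with AC, 2.47, 2.15 and 2.79 CPM with CpG and 2.08, 1.98 and 2.83 CPM in controls.

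Nos2, the inducible nitric oxide synthase, was at 56.3, 46.8 and 50.7 CPM with AC and 2.65, 1.09 and 2.95 CPM with CpG, a log2 fold change of 4.51 (SE 0.29 with an adjusted p of 1.72e-10). Slc7a2, which imports its substrate arginine, was at 84.9, 73.6 and 81.5 CPM and 8.79, 6.37 and 9.02 CPM, and Odc1, the rate-limiting enzyme of polyamine synthesis, at 286, 311 and 287 CPM and 88.1, 81.2 and 68.97 CPM. In all, 5 of 11 genes of nitric oxide, arginine and itaconate metabolism were called higher with AC, or 3 under scaling by total counts, and 0 with CpG. Of 18 prostaglandin and leukotriene genes, 2 were called higher with AC and 1 with CpG, beside 5.38% and 3.8% of all genes. Ptgs2, which encodes cyclooxygenase 2, was at 143, 143 and 157 CPM with AC and 34.6, 30.98 and 37.4 CPM with CpG. Ptger4, a receptor of prostaglandin E2, ran the other way at 13.6, 13.4 and 13.7 CPM with AC and 58.3, 64.8 and 66.3 CPM with CpG, with controls between them at 22.1, 23.2 and 21.3 CPM. Of 26 immediate-early factors 10 were called higher with AC and 1 with CpG. Nr4a3, an orphan nuclear receptor, had 13.4, 11.6 and 12.5 CPM with AC and 0.4498, 0.519 and 0.571 CPM with CpG, and Batf2, an interferon-induced factor, 74.5, 62.1 and 70.1 CPM and 8.95, 6.23 and 10.6 CPM. Myc was at 8.55, 8.94 and 10.2 CPM with AC and 30.4, 33.03 and 38.3 CPM with CpG, with controls nearer to AC (13.2, 14.5 and 11.9 CPM).

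Of 35 genes of recognition and engulfment, 5 were called higher with AC (Axl, Gas6, Stab2, Cd300lf and Tgm2), or 2 under scaling by total counts, and 0 higher with CpG. Axl, a receptor for the bridging protein Gas6, was at 343, 333 and 393 CPM with AC, 114, 106 and 120.4 CPM with CpG and 187, 183 and 193 CPM in controls. Relative to control it was higher with AC (log2 fold change 0.92) and lower with CpG (-0.73). Mertk was highest in controls, at 273, 264 and 256 CPM, with 188, 172 and 186 CPM with AC and 103, 109.8 and 104 CPM with CpG, a difference of 0.79 that was not called. Stab2, a receptor for phosphatidylserine, was low at 5.25 ± 0.192 and 1.22 ± 0.295 CPM. Abcg1, a cholesterol exporter and target of the liver X receptors (LXRs), was at 498, 481 and 505 CPM with AC and 155, 145 and 105 CPM with CpG, with controls at 208, 182 and 164 CPM. Ch25h, cholesterol 25-hydroxylase and also an interferon-induced gene, had 15.9, 23.8 and 21.4 CPM with AC and 1.37, 2.1001 and 2.19 CPM with CpG. These and Plin2, which coats lipid droplets, were the 3 of 21 genes of LXR targets and cholesterol efflux called higher with AC, and 0 were higher with CpG. Plin2 lost its call under scaling by total counts, at 1.11.

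Sterol and fatty acid synthesis was the list with the lowest median, -0.81, with 8 of 29 genes called higher with CpG and 0 with AC. Among them were Hmgcs1, Idi1, Fdft1, Sqle and Cyp51, enzymes of cholesterol synthesis, and the sterol transporter Stard4. Stard4 was at 5.61, 6.69 and 6.75 CPM with AC, 32.2, 33.1 and 37.02 CPM with CpG and 20.9, 26.1 and 21.6 CPM in controls. Sqle, squalene epoxidase, was at 7.08, 7.19 and 8.08 CPM, 27.4, 31.97 and 33.4 CPM and 13.7, 19.5 and 17.04 CPM. For both genes the controls lay between AC and CpG without overlap. Against control, with shared control samples, 2 genes of the list were called higher and 0 lower with CpG (4.81% and 4.45% of all genes), and 1 was called higher and 1 lower with AC (7.09% and 5.83%), shares near or below those of all genes.

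Of 37 lysosomal genes none was called, although edgeR gave 33 an adjusted p under 0.05 towards AC and 2 towards CpG, and the median was 0.52. Of all 15789 genes tested, 4063 and 4179 had such a p towards AC and towards CpG. Psap, which encodes the saposins, was at 16575, 15528 and 15159 CPM with AC and 10485, 10691 and 9877 CPM with CpG, or 0.61 on the log2 scale. Among 14 scavenger receptors 2 were called higher with AC. Olr1, a receptor of oxidized LDL, was at 92.9, 90.1 and 87.8 CPM with AC, 28.2, 22.7 and 20.9 CPM with CpG and 2.41, 3.43 and 1.74 CPM in controls. The metal-binding metallothioneins Mt1 and Mt2 were at 250.3 ± 11.5 and 137 ± 3.46 CPM with AC and at 60.5 ± 5.55 and 16.5 ± 1.27 CPM with CpG, and the zinc exporter Slc30a1 at 394 ± 14.2 and 63.6 ± 7.59 CPM. Hmox1, heme oxygenase 1, was at 5372, 6147 and 6279.6 CPM with AC and 2244, 2611 and 2297 CPM with CpG. Its difference of 1.32 lay at the fold threshold. The call of Hmox1 was lost without AC replicate 2 or 3 or CpG replicate 1 or 3, at 1.27 to 1.29. It was also lost under scaling by total counts, at 1.03. Hp, haptoglobin, and Lcn2, lipocalin 2, were higher with CpG, at 5.99, 5.66 and 7.85 and 1.94, 2.103 and 2.74 CPM with AC and 31.1, 36.8 and 53.7 and 9.54, 9.81 and 16.1 CPM with CpG. Of 13 genes linked to glucocorticoids, the class of drug that killed the thymocytes, Mt2 and Sult1a1 were called higher with AC and Hif3a and Per1 with CpG. Hif3a had 0.3101, 0.252 and 0.538 CPM with AC and 4.99, 3.48 and 5.05 CPM with CpG, and Per1 7.34, 8.18 and 8.97 CPM and 17.5, 20.1 and 23.4 CPM. The call of Per1 (-1.31) was lost without AC replicate 1 (-1.24) or CpG replicate 3 (-1.196) and with DESeq2 or its size factors (-1.29), and that of Sult1a1 under scaling by total counts (1.29). None of 18 antioxidant genes of the NRF2 list was called, and Prdx1 differed by 0.34.

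In glycolysis and hypoxia 4 of 26 genes were called higher with CpG (Slc16a3, Egln3, Bnip3 and Ankrd37), 7 under scaling by total counts, and 1, Slc2a6, higher with AC. Egln3, an oxygen sensor induced by hypoxia, had 1.24, 1.199 and 1.97 CPM with AC, 11.5, 10.9 and 10.6 CPM with CpG and 4.61, 5.26 and 6.798 CPM in controls. Bnip3, a mitophagy receptor, was at 32.2, 33.7 and 36.7 CPM with AC and 110.02, 114 and 113 CPM with CpG. Slc2a6, a glucose transporter family member, was at 148, 164 and 157 CPM with AC and 41.9, 45.7 and 40.8 CPM with CpG. Of 18 receptors for purines and related ligands, P2ry12, P2ry13 and P2ry14, which lie together on chromosome 3, were called higher with AC, and P2ry1, Gpr18 and Gpr183 higher with CpG. P2ry13, an ADP receptor, was at 16.9, 18.1 and 18.5 CPM with AC and 2.901, 3.26 and 2.49 CPM with CpG, and Gpr18 at 6.77, 5.55 and 6.73 and 26.02, 24.5 and 28.3 CPM. Entpd1, the ectoenzyme CD39 that degrades ATP, was at 168, 168 and 162 CPM with AC and 41.97, 36.3 and 28.5 CPM with CpG, and controls were highest at 236, 219 and 178 CPM. Of 29 genes of inflammasomes and cell death 10 were called higher with AC, 6 under scaling by total counts, and 0 with CpG. Aim2, a sensor of cytosolic DNA, was at 77.6, 69.7 and 79.1 CPM with AC and 19.004, 17.6 and 16.5 CPM with CpG. Cdkn1a, the cell cycle inhibitor p21, was at 1535, 1616 and 1450.1 CPM with AC and 299, 319 and 343 CPM with CpG, the CpG level overlapping controls (320.3, 358 and 351 CPM). Cdkn1b, the inhibitor p27, ran the other way at 15.5, 14.6 and 15.6 and 45.9, 41.9 and 47.4 CPM. In the unfolded protein and stress response 1 of 25 genes was called higher with AC and 2 with CpG, beside 5.38% and 3.8% of all genes. Ppp1r15a, a phosphatase subunit that restores translation after stress, was at 151, 168 and 155 CPM with AC and 49.3, 54.8 and 49.99 CPM with CpG. Herpud1 and Cebpd were higher with CpG, at 63.5 ± 10.001 and 108 ± 17.98 CPM beside 17.99 ± 1.09 and 31.7 ± 5.46 CPM with AC.

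Among the remaining lists, 8 of 27 matrix protease and repair genes were called higher with AC and 0 with CpG, among them the heparin-binding growth factor Hbegf at 8.06, 9.19 and 10.6 and 1.51, 2.199 and 1.64 CPM and tissue factor, F3, at 2.48, 3.302 and 2.602 and 0.135, 0.296 and 0.206 CPM. Of 20 genes of purine salvage and degradation 6 were higher with AC and 0 with CpG, and Upp1, uridine phosphorylase, was at 4.16, 4.82 and 4.06 and 0.697, 0.519 and 0.936 CPM. Of 17 complement genes 1, C4b, was called higher with AC, near the 5.38% of all genes. Its call was lost under scaling by total counts and without CpG replicate 2 (1.28). C3, the central component, was at 778, 802 and 768 CPM with AC and 466, 456 and 513 CPM with CpG, higher in each AC sample by less than the fold threshold (0.71). Of 11 MAP kinase phosphatases 2 were higher with AC, Dusp5 at 12.7 ± 0.905 CPM beside 3.61 ± 0.533 CPM with CpG. Arid5a, an RNA-binding protein that stabilizes cytokine mRNAs, was at 125, 139.97 and 132 CPM with AC, 6.72, 6.03 and 9.04 CPM with CpG and 12.7, 9.997 and 10.8 CPM in controls.

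**Figure D4:**
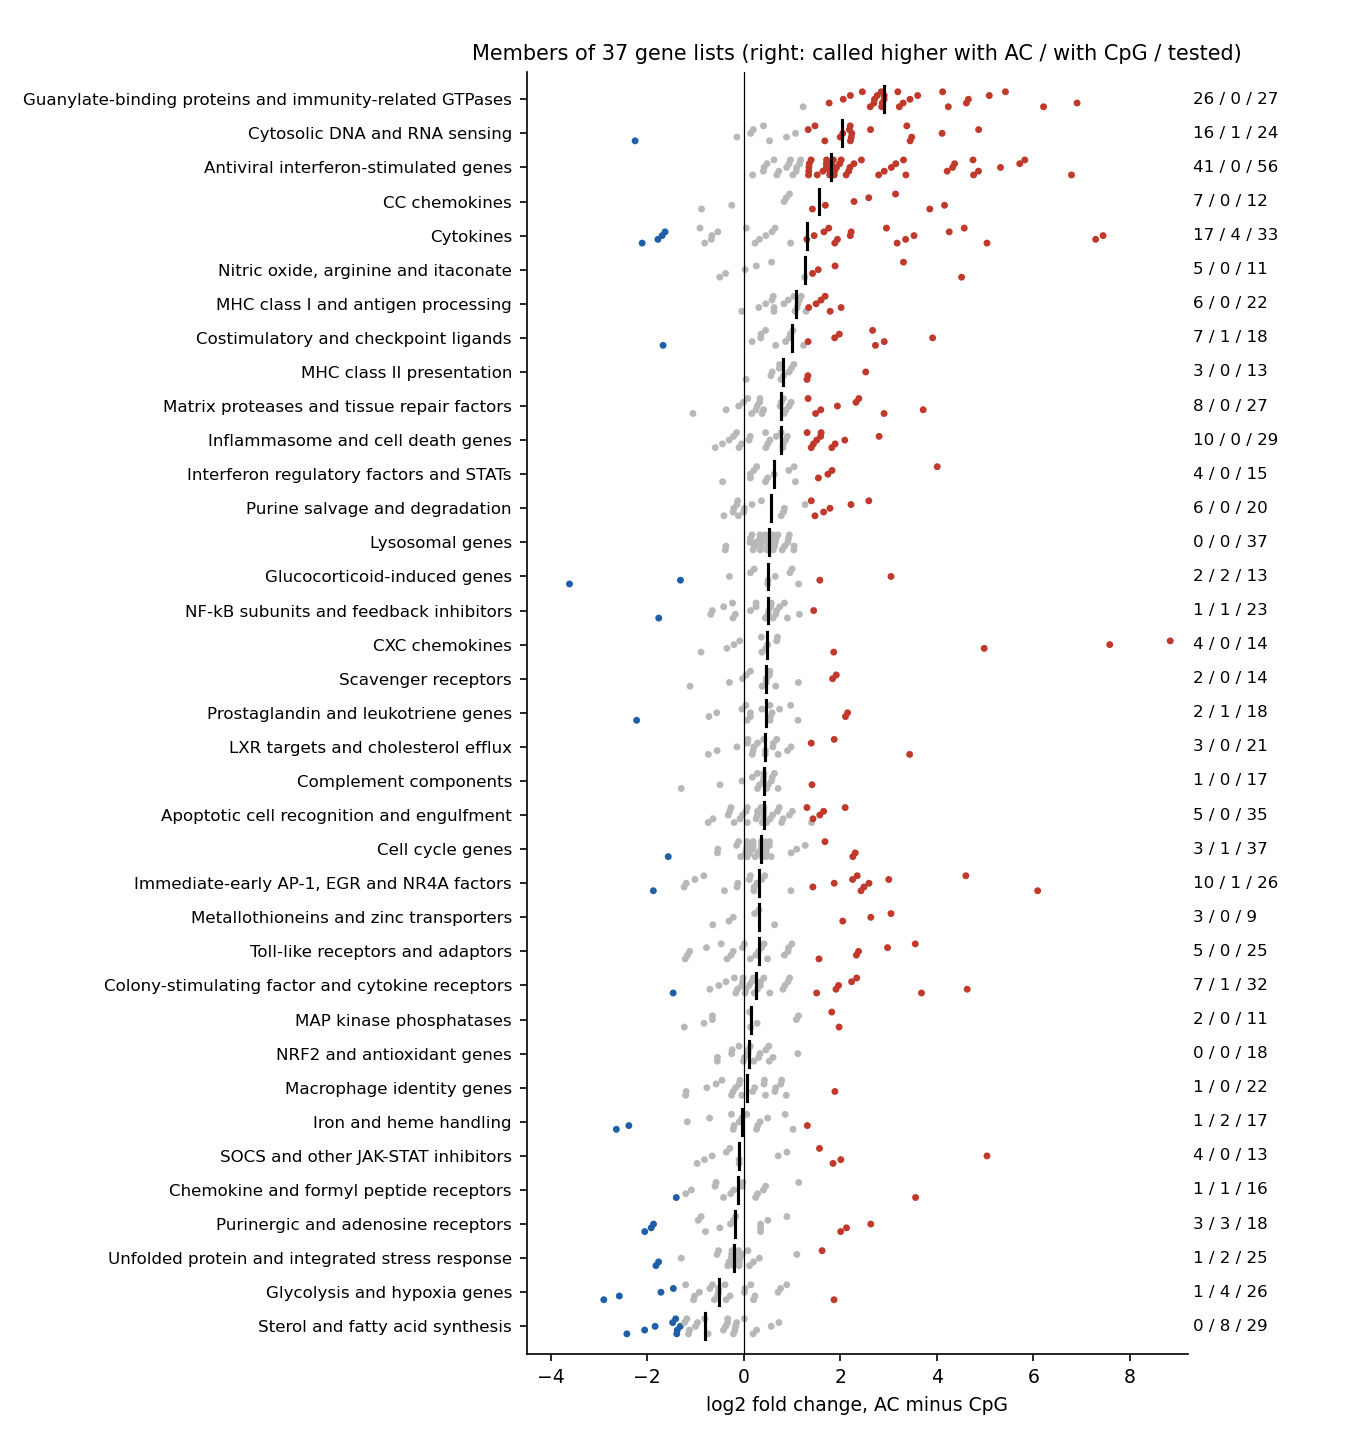
Log2 fold change of AC over CpG for each tested member of 37 gene lists, ordered by median. Each point is a gene, red where it was called higher with AC, blue where higher with CpG and grey where not called, black lines are medians, and the numbers at the right give the members higher with AC, higher with CpG and tested. GBPs and immunity-related GTPases have the highest median, 2.91, and sterol and fatty acid synthesis the lowest, -0.81.

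The labelled cell type was checked by its markers. The 22 macrophage identity genes all had counts and summed to between 27684 and 28621 CPM with AC and between 25200 and 25891 CPM with CpG. One of them was called, Fcgr1, the high-affinity IgG receptor, at 311, 322 and 316 CPM with AC and 91.1, 66.98 and 98.5 CPM with CpG. The AC group had received thymocytes, so 31 T-lineage genes were summed, and gave 153 to 164 CPM with AC, 77.9 to 93.4 CPM with CpG and 160.1 to 207 CPM in controls. Most of that sum was Il7r, Cd28 and Cd4, whereas the defining genes were near 0: Cd3e had 4 counts over the 3 AC and 4 over the 3 CpG samples, Trac 7 and 12, Cd8a 10 and 6, and Rag1 3 and 0. More counts with AC were also found for Cd3g (14 and 4), Trbc1 (10 and 2), Trbc2 (13 and 7) and Cd8b1 (9 and 2). Fewer were found for Themis (0 and 5), Cd2 (2 and 5) and Dntt (1 and 3). Of the 15 that passed the filter, Lck, Cd5, Cd28 and Satb1 were called higher with AC and 0 with CpG. The call of Satb1 was lost without AC replicate 3 (1.23), CpG replicate 1 (1.11) or CpG replicate 2 (1.16). It was also lost under scaling by total counts (1.04). Cd28 was at 30.96, 27.9 and 28.2 CPM with AC and 8.34, 10.2 and 5.57 CPM with CpG but highest in controls, at 69.3, 55.5 and 51.3 CPM. Neutrophil markers summed to 390 to 447 CPM with AC and 477 to 581 CPM with CpG. B cell markers gave 193 to 195 and 190.2 to 209 CPM, dendritic cell markers 388 to 430.3 and 289 to 335 CPM, stromal markers 418 to 469 and 258 to 302 CPM, and erythroid, mast cell and megakaryocyte markers 0.982 to 2.04 and 0.982 to 1.04 CPM. Most of the dendritic cell sum was Bst2, also of the antiviral list, at means of 378 CPM with AC and 271 CPM with CpG. Other members went both ways, as Batf3 at 4.60 and 10.5 CPM and Xcr1 at 2.13 and 0.909 CPM. Of the 9 dendritic cell markers tested 0 were called. Vcam1, an adhesion molecule of the stromal list, was at 119, 111 and 117 CPM with AC and 11.5, 9.19 and 11.03 CPM with CpG. The part of other cell types in the results was not tested.

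The genes higher with CpG included many noncoding ones. Protein-coding genes were 87.8% of those higher with AC and 46.7% of those higher with CpG. Of 1444 long noncoding, antisense and unconfirmed (TEC) genes tested, 277 (19.2%) were called higher with CpG and 44 (3.05%) higher with AC. Their median log2 fold change was -0.61, beside 0.01 for the 12980 protein-coding genes. They took 0.420 to 0.496% of counts with AC, 0.717 to 0.739% with CpG and 0.702 to 0.767% in controls, so the AC samples were the ones that stood apart from control. Whether counting used strand is not given in the sources used here, so reads of antisense genes and of their partners cannot be told apart.

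The same contrast was taken in B6 BMDMs, whose 6 samples are separate from the Aec1Aec2 samples, and the difference between the strains' contrasts was tested as an interaction. The AC over CpG difference was higher in Aec1Aec2 than in B6 for 817 genes (5.17% of genes tested) and lower for 562 (3.56%), by edgeR's quasi-likelihood test with the same thresholds. Under scaling by total counts these numbers were 567 and 1338. In B6 575 genes were higher with AC and 548 higher with CpG. Of the 20 genes with the largest differences in Aec1Aec2 at 5 CPM or more without overlap, 17 had the same sign in B6. In B6, 13 of them were called in the same direction, and these were mostly genes higher with CpG. Towards CpG all but Gm10169 were called in B6. Towards AC only Cxcl10, Cxcl11, Dll1 and Fosb were. Gm4841, Ifit1bl1 and Lhx2 had the same sign without a call, and Serpina3f, Serpina3g and Tgtp1 had the opposite sign. Cxcl10 was at 191 ± 12.1 CPM with AC and 54.5 ± 4.52 CPM with CpG in B6, a log2 fold change of 1.81 beside 7.58 in Aec1Aec2, and the difference between the strains was 5.77 (SE 0.303, adjusted p = 3.53e-11). Other genes were called in opposite directions in the 2 strains. Nos2, Cd40 and Cd69, higher with AC in Aec1Aec2, were higher with CpG in B6, at 0.515 ± 0.155, 18.96 ± 3.302 and 28.4 ± 3.32 CPM with AC and 5.95 ± 2.42, 67.7 ± 5.198 and 88.4 ± 6.89 CPM with CpG. Serpina3g was at 1.73 ± 0.272 and 3.49 ± 0.277 CPM in B6, where its log2 fold change of -1.02 was not called. The interactions of Serpina3g, Nos2, Cd40 and Cd69 were 7.45, 8.04, 4.74 and 5.55.

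The cytokine genes Il1b, Tnf and Il12b and the chemokine gene Ccl3, not called in Aec1Aec2 BMDMs, were called higher with CpG in B6. Il1b was at 51.5 ± 10.5 CPM with AC and 1028 ± 239 CPM with CpG in B6 (log2 fold change -4.32), and the interaction was 4.55 (SE 0.26, adjusted p = 1.04e-10). Tnf was at 163 ± 18.04 and 956 ± 90.2 CPM in B6, with an interaction of 2.87, Il12b at 0.868 ± 0.372 and 99.5 ± 2.01 CPM, with 6.19, and Ccl3 at 98.8 ± 4.44 and 1505 ± 139.9 CPM, with 3.68. For Il1b the CpG level was lower in Aec1Aec2 and the AC level higher than in B6, whereas for Ccl3 the AC level differed most. Il10 was higher with CpG in both strains, by less in Aec1Aec2 (-1.69) than in B6 (-3.23). By list, the contrast was higher in Aec1Aec2 for 48 of 56 antiviral genes and lower for 1, higher for 27 of 27 GBPs and immunity-related GTPases, 16 of 33 cytokines, 8 of 12 CC chemokines and 8 of 23 NF-κB genes, and lower for 0 of these last 4 lists. Among genes with no such strain difference, Cd300e had log2 fold changes of -3.73 in Aec1Aec2 and -3.45 in B6 (interaction -0.28, adjusted p = 0.453), Olr1 of 1.92 and 1.86, and Entpd1 of 2.22 and 2.54.

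Genes whose contrast was lower in Aec1Aec2 than in B6 were led by Cxcr4, Bmf, Gm10169, Zfp395 and Gm37795. Cxcr4, the receptor of CXCL12, was at 112, 118 and 108 CPM with AC and 56.2, 65.8 and 31.4 CPM with CpG in Aec1Aec2 and at 105 ± 2.98 and 3.53 ± 1.57 CPM in B6, so the difference lay in the CpG samples (interaction -3.78, SE 0.34). Its AC over CpG log2 fold change of 1.14 in Aec1Aec2 was not called, but was without CpG replicate 2 (1.36). Bmf, a pro-apoptotic BCL2 family member, had 1.73, 1.72 and 1.39 CPM with AC and 8.19, 8.598 and 5.28 CPM with CpG in Aec1Aec2, and 7.45 ± 0.539 and 3.86 ± 0.191 CPM in B6. Zfp395, a zinc finger protein, had 2.63 ± 0.293 and 13.03 ± 1.31 CPM in Aec1Aec2 and 10.8 ± 0.839 and 6.81 ± 0.935 CPM in B6. Both were called higher with CpG in Aec1Aec2, whereas their log2 fold changes in B6, 0.95 and 0.66, were not called, and both were higher in untreated Aec1Aec2 BMDMs than with either stimulus, at 35.5, 31.9 and 41.7 and 37.6, 35.4 and 38.5 CPM. Cxcl9, Serpina3g, Serpina3f, Tgtp1 and Nos2 had the largest differences the other way, with interactions of 7.85, 7.45, 7.31, 6.72 and 8.04.

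**Figure D5:**
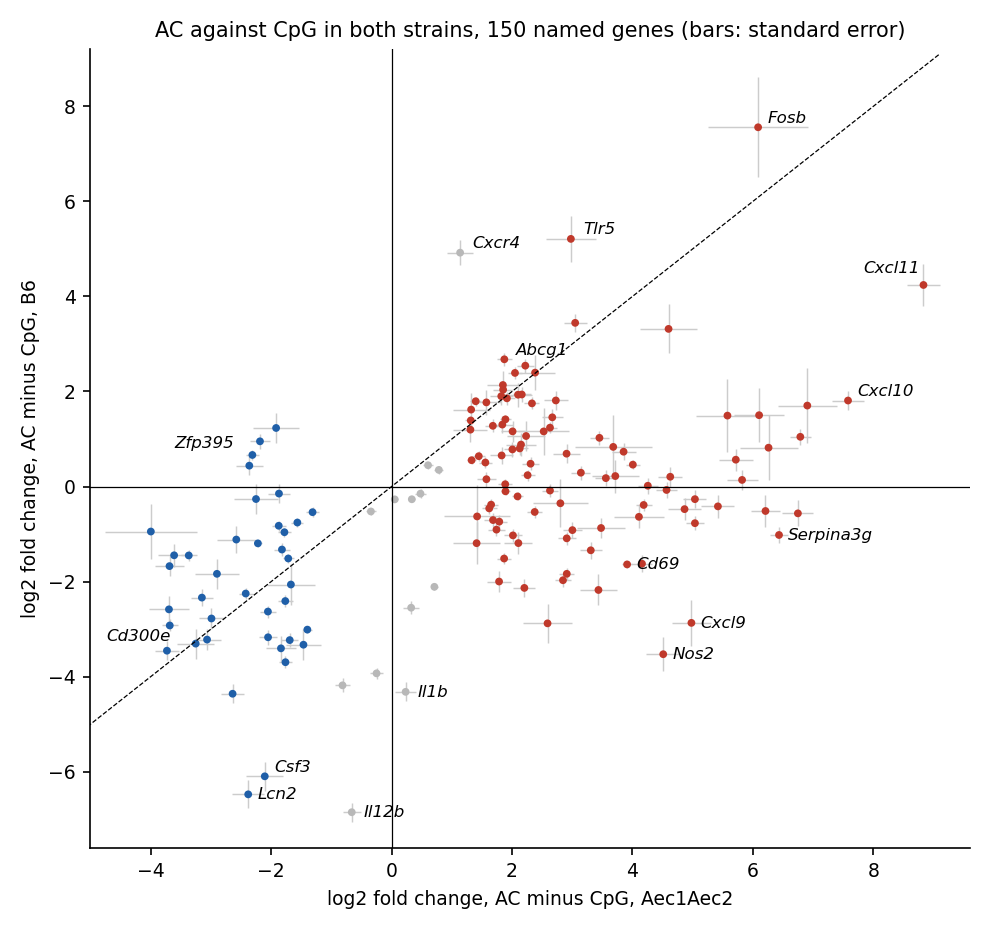
AC over CpG log2 fold change in Aec1Aec2 (x axis) against B6 (y axis) for 150 named genes. Points are genes with standard errors as bars, red where called higher with AC in Aec1Aec2, blue where higher with CpG and grey where not called, and the dashed line marks equal values in both strains. Il1b and Il12b lie near 0 on the x axis and far below 0 on the y axis, and Cxcl9, Nos2, Cd69 and Serpina3g lie right of 0 and below 0, whereas Cd300e lies near the dashed line.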

How the data were processed

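RNA of BMDMs was sequenced in 18 samples, 3 in each of 6 groups. The authors aligned reads to mm10 with STAR in Partek Flow, quantified genes with Partek's expectation-maximization tool and deposited estimated counts per gene, with no normalization (41.1% of values are not whole numbers, within 1e-06), for 20615 genes, each with 10 or more counts over the samples. No per-sample column was left unused. Of 23 gene names that a spreadsheet had turned into dates, 19 were resolved by position against GENCODE M21, in which 88.4% of the genes matched by name had the same chromosome and start.

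Samples were grouped by their labels. The deposited estimates were first rounded to whole numbers, then fitted in edgeR 4.0.16 (R 4.3.3) with the mean of each of the 6 groups, filterByExpr, TMM scaling and the quasi-likelihood test. Adjustment over all tested genes followed Benjamini and Hochberg, with the thresholds taken from the methods of the study. The AC against CpG contrast was taken in Aec1Aec2 and in B6, and their difference was the strain comparison. Counts on genes had a median of 53495524 in the AC and 43293859 in the CpG group. The study describes 3 mice per strain, so the samples of a group are taken as separate mice. Treatments of a strain may share these mice, but no source used here ties the sample numbers to them. On counts simulated for this comparison, where 200 genes differed by 2 on the log2 scale, edgeR recovered 200 of 200 with 0 false calls over 15255 genes. Every simulated gene had the same dispersion (spread between samples), and genes with few counts were left out of those changed. The simulation therefore does not show how well such genes, or genes with a wider spread, are recovered.

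Genes are named by a rule: the 10 largest log2 fold changes in each direction among called genes whose samples did not overlap and whose mean was 5 CPM or more in the higher group, up to 3 called members of each gene list in each direction at 1 CPM or more or else the highest member, 24 genes of the study's themes, and the 5 largest strain differences in each direction. The members and lists were chosen with earlier results of these data known. Alternatives were DESeq2 1.42.0, its size factors, total-count scaling (added after the data were seen), other filters and fold thresholds, the compared groups alone, a replicate block and leaving out each sample. Same-numbered AC and CpG samples were not treated as pairs. Promoters were read from RefSeq (GRCm38.p6) and scanned in Python 3.11.15. Single values of some genes are not reported here.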

Additional observations from a re-analysis of the deposited data

Results flagged for a closer look

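The AC over CpG difference was tested between Aec1Aec2 and B6 as an interaction in edgeR's quasi-likelihood fit, and 817 genes were higher and 562 lower in Aec1Aec2. Of 150 named genes 77 were higher and 13 lower past both thresholds. The differences between the strains' log2 fold changes follow for those chosen for the size of their change, as a theme of the study or for the size of the strain difference, and those of gene list members are left out. Among chemokines and cytokines they were 7.85 for Cxcl9, 5.77 for Cxcl10, 4.59 for Cxcl11, 3.68 for Ccl3, 6.19 for Il12b, 4.55 for Il1b, 4.34 for Il6, 2.87 for Tnf, 1.54 for Il10 and 4.08 for Ifnb1. Interferon-induced genes and GTPases differed by 6.72 for Tgtp1, 5.74 for Ifit1bl1, 5.2 for Gm4841, 4.82 for Gbp2, 4.0 for Igtp and 3.55 for Irf1. The serpins Serpina3g and Serpina3f differed by 7.45 and 7.31. Genes of activation and feedback differed by 8.04 for Nos2, 5.81 for Socs1, 3.37 for Socs3, 5.55 for Cd69, 4.74 for Cd40, 4.57 for Arid5a, 2.82 for C3 and 2.03 for Axl. Lhx2 and Dll1 differed by 5.44 and 4.60. Lower in Aec1Aec2 than in B6 were Cxcr4 at -3.78, Bmf at -3.14, Gm10169 at -3.05, Zfp395 at -2.98, Gm37795 at -2.80, Fcrl5 at -2.01 and Kcnj2 at -1.92.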

How the results depend on the processing

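Called numbers moved with the fold threshold and the scaling. With a log2 fold change over 2, 390 genes were higher with AC and 236 with CpG. With a fold change over 1.3 they were 2890 and 2833, and with no fold threshold 4063 and 4179. The strain difference gave 462 higher and 230 lower, 2318 and 2557, and 3025 and 3138 genes under the same 3 thresholds. Under total-count scaling 600 genes were higher with AC and 1048 with CpG, the strain difference gave 567 and 1338, Il1b turned to -0.0510 and Tgfb1 to -0.23, 11 of 150 named genes lost their call and 21 list counts moved. DESeq2 gave 907 and 623 genes and, for the strain difference, 875 and 521. Leaving out 1 sample gave 803 to 875 genes higher with AC and 500 to 635 higher with CpG, and 777 to 841 and 492 to 659 for the strain difference. Same-numbered AC and CpG samples had correlated deviations of 0.107, 0.0594 and 0.0756, each sample's best, which is a hint from the data and not a pairing by design. With the replicate block 856 and 603 genes were called, and 818 and 572 for the strain difference, and all 150 named genes kept their side of the thresholds. With promoters cut to 100 bases before the start to 50 after, the ISRE letters were held by 11.5% of genes higher with AC, 2.15% higher with CpG and 3.94% of all. GAS gave 6.29%, 3.23% and 3.94%, kappa-B 4.02%, 3.58% and 2.88%, and AP-1 8.57%, 3.58% and 3.34%. For kappa-B and AP-1 the share of genes higher with CpG, 10 of 279 promoters each, thus lay slightly above that of all genes and not below it. For GAS it stayed below. These shares rest on few promoters, and their differences from all genes were not tested. The cause of these changes was not tested. At these depths genes with few counts have wide errors, and 3 samples a group limit the precision.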

Other observations

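Some transcripts outside the gene lists also differed, and were chosen after their values were seen. The mitochondrial ribosomal RNA mt-Rnr2 was at 3365, 3858 and 3583 CPM in the AC samples of Aec1Aec2 BMDMs, at 525, 452 and 384 CPM in the CpG samples and at 428, 366 and 234 CPM in controls, a log2 fold change of 2.99 for AC over CpG. The other mitochondrial ribosomal RNA, mt-Rnr1, differed by 2.44. The nuclear long noncoding RNA Neat1, a scaffold of paraspeckles, was lower with AC, with a log2 fold change of -1.93, while Malat1, at -0.87, was not called. Saa3, an acute-phase protein of macrophages, was higher with CpG, with a log2 fold change of -2.85.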
